A study of Mus musculus with 15 samples.

Results

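Ptpn4 and 8 other protein tyrosine phosphatases of lymphocytes were followed in sorted regulatory T (Treg) cells with and without DOCK8, a guanine nucleotide exchange factor that acts on the actin cytoskeleton of immune cells. The 9 genes were Ptprc, Ptprj, Ptpn4, Ptpn2, Ptpn6, Ptpn11, Ptpn7, Ptpn18 and Ptpn22, of 30949 genes listed in every library. They were chosen by name with earlier results of these data known, so tests of the 8 genes other than Ptpn4 may not be independent of that choice. Ptpn4 heads the list because it was selected on its difference between unstimulated DOCK8-deficient and wild-type cells in these same libraries. Every value from that contrast, and every difference of Ptpn4 taken from its unstimulated libraries, is therefore a description and carries no test.

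Treg cells were sorted as CD25+CD39+ cells from female C57BL/6 mice with the alleles Foxp3YFP-Cre/+ and Dock8flox/flox, out of lymph nodes and spleen. The labels give the T cell gate as CD3+ in one place and CD4+ in another, and give no ages. The promoter of Foxp3, the defining transcription factor of Treg cells, drives the Cre, which is fused to a yellow fluorescent protein (YFP), and the gene lies on the X chromosome, so that each female holds YFP+ cells that delete Dock8 (labelled KO) and YFP- cells that do not (labelled WT). Both kinds therefore come from the same genotype of animal, and KO cells differ from WT cells also in carrying the active Cre and in the X chromosome in use. Cells were cultured for 16 h in medium alone (unstimulated) or with anti-CD3+CD28 beads at 1 bead per cell, and Smart-Seq2 libraries were made. There were 4 WT and 6 KO unstimulated libraries, and 3 WT and 2 KO libraries with beads. The labels do not say which libraries came from separate mice, so the p-values measure the spread between these libraries.

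Protein tyrosine phosphatases remove phosphate from tyrosine residues and so oppose, and at some sites license, the tyrosine kinases that act below the T cell receptor and the cytokine receptors. CD45, the product of Ptprc, takes the inhibitory phosphate off the kinase Lck and is needed for T cell receptor signalling, whereas SHP-1 (Ptpn6), PTPN22 and the T cell phosphatase TC-PTP (Ptpn2) are known mainly as brakes. TC-PTP also acts on Jak kinases and STAT proteins below the IL-2 receptor, on which Treg cells depend. PTPN4 carries FERM and PDZ domains and has been linked to dephosphorylation of the T cell receptor zeta chain.

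The values are TPM (transcript abundances that are by definition scaled to a common total), which are scaled for transcript length and so can be compared between genes. As deposited, the TPM did not sum to the same total in every library. The sum was lowest in WT bead library 1 and highest in unstimulated KO library 5. Every unstimulated KO library summed above every bead library, and the range of the unstimulated WT libraries overlapped both. The number of reads behind the TPM is not known. In bulk RNA fewer cells of a type and less RNA per cell cannot be told apart. Dock8 itself was at 14.6 ± 5.35 TPM (SD, n = 4) in unstimulated WT, 8.58 ± 1.85 (n = 6) in unstimulated KO, 9.25 ± 0.763 (n = 3) in WT with beads and 6.86 ± 1.47 (n = 2) in KO with beads. These values cover the whole gene and not the floxed part alone, so they do not check the deletion. Treg markers were present in every group, with a summed level of 502 to 861 TPM in unstimulated WT, 337 to 522 in unstimulated KO, 1318 to 1352 in WT with beads and 1355 to 1467 in KO with beads. Much of the sum with beads was Tnfrsf18, which encodes the receptor GITR, with means of 503 TPM (WT) and 651 TPM (KO). Foxp3 was at 98.7 (WT) and 42.5 TPM (KO), Il2ra, the IL-2 receptor alpha chain, at 190 and 118 TPM, and Ikzf2, the factor Helios, at 36.9 and 23.3 TPM. The rest of the list was not lower in KO, with Ctla4 at 186 and 204 TPM, Entpd1 at 130 and 157 TPM, Cd4 at 50.4 and 68.3 TPM and Cd3e at 144 and 147 TPM. Without beads the Foxp3 means were 43.2 TPM (WT) and 13.3 TPM (KO). Summed markers of CD8 T and NK cells ranged from 29.9 to 58.1, 22.6 to 45.8, 11.3 to 18.5 and 17.8 to 34.4 TPM in the same order, those of B cells stayed between 4.22 and 32.1 TPM, those of myeloid cells between 1.30 and 27.3 TPM, and those of erythroid cells between 1.74 and 28.0 TPM. No marker was at 0 in all libraries of a group, and the part of these markers in the results was not tested. The unstimulated tables list 36904 genes and those with beads 31785, which is the same split as the treatment. The sources used here do not say whether the sets of tables were processed apart, and any such difference cannot be told apart from the beads in a comparison with medium.

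Promoter sequence was taken for the pair of genes that moved farthest apart with beads, Ptpn6, which had the largest increase in WT cells, and Ptpn22, which had the lowest value. Each line is the 250 bases before a RefSeq start (GRCm38.p6), 5′ to 3′ on the gene's strand, and capitals mark GGAAA or its reverse complement TTTCC, the core bound by NFAT, a factor switched on by T cell receptor signals. Ptpn6 lies on the minus strand and its window is chr6:124738710-124738959, whereas Ptpn22 lies on the plus strand and its window, before the second of its listed starts, is chr3:103860027-103860276, in an intron of a longer transcript.
Ptpn6: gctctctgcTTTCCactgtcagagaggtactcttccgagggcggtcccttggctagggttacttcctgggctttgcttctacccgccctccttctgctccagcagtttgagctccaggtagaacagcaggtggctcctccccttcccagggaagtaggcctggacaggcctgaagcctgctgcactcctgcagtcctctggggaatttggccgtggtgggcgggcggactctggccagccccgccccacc
Ptpn22: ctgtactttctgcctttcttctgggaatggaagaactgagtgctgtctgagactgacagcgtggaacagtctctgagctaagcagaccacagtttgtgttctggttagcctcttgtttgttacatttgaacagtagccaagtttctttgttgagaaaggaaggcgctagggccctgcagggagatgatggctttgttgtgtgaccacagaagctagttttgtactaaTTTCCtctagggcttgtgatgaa
The core was in 7 of the 12 windows found for 8 of the 9 genes and in 55.6% of all 32851 windows of this length. The spaced palindrome TTCNNNGAA, the letters recognised by STAT proteins, was in the window of Ptpn22 shown here, in a window of Ptprj (chr2:90479175-90479424) and in 7.02% of all windows. The window before the first listed start of Ptpn22, not shown, held neither the core nor this palindrome. TGANTCA, the letters of AP-1, was in 0 of the 12 windows and 6.75% of all. The window of Ptpn4, which lies in an annotated exon of longer transcripts and is not shown, held 36 CG dinucleotides against a median of 6, and 2.58% of all windows held at least as many. The other window of Ptprj (chr2:90580596-90580845), without the palindrome, and that of Ptpn11 held 34 and 31. These matches describe letters only.

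Ptpn4 (ENSMUSG00000026384, mm10, chr1:119652467-119837613, minus strand) was read at 5.36, 7.93, 27.6 and 14.1 TPM in the unstimulated WT libraries, given here and below as the unnumbered library followed by numbers 1 to 3. The 6 unstimulated KO libraries ran from 0.680 to 3.06 TPM with a median of 1.03. All 6 lay below all 4 WT libraries, while the WT libraries were themselves widely spread, the unnumbered one being lowest and number 2 highest. The means were 13.7 ± 9.92 TPM (SD, n = 4) and 1.33 ± 0.868 TPM (n = 6), a WT mean 10.3 times the KO mean, and the log2(TPM + 1) difference of KO from WT was -2.49 (SE 0.41). It was -2.09 without WT library 2, and, with KO levels near the pseudocount, it was -3.16 with a pseudocount of 0.1 and -1.43 with one of 5. This is the contrast on which the gene was selected.

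With beads, Ptpn4 stood at 7.02, 12.3 and 5.90 TPM in the WT libraries and at 17.3 and 17.5 TPM in the KO libraries. Both KO libraries were above all 3 WT libraries, and the order of the genotypes was the opposite of that without beads. The group means were 8.41 ± 3.44 TPM (SD, n = 3) and 17.4 ± 0.160 TPM (n = 2), and the log2 difference of KO from WT was 1.03 (SE 0.57). The difference itself does not use the unstimulated values, but its SE does, since limma estimated a spread shared by all groups. It did not pass: the adjusted p was 1.00 with limma and Benjamini-Hochberg adjustment over all genes. With only the bead libraries fitted, the SE was 0.36 and the limma adjusted p 0.517. The two-sided exact permutation p was 0.2 over the 10 ways of splitting 3 and 2 libraries, a design that cannot go below 0.1. From medium to beads the KO mean went from 1.33 to 17.4 TPM, a log2 difference of 3.04, and the WT mean from 13.7 to 8.41 TPM, a log2 difference of -0.47 with overlapping libraries. The WT value has no settled sign: it was 0.095 under median-ratio scaling, -0.072 without WT unstimulated library 2 and -0.79 without the unnumbered one. The KO value was 3.77 and 1.83 with pseudocounts of 0.1 and 5. The differences between genotypes and the responses share libraries, so they are not separate evidence for each other.

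**Figure D1:**
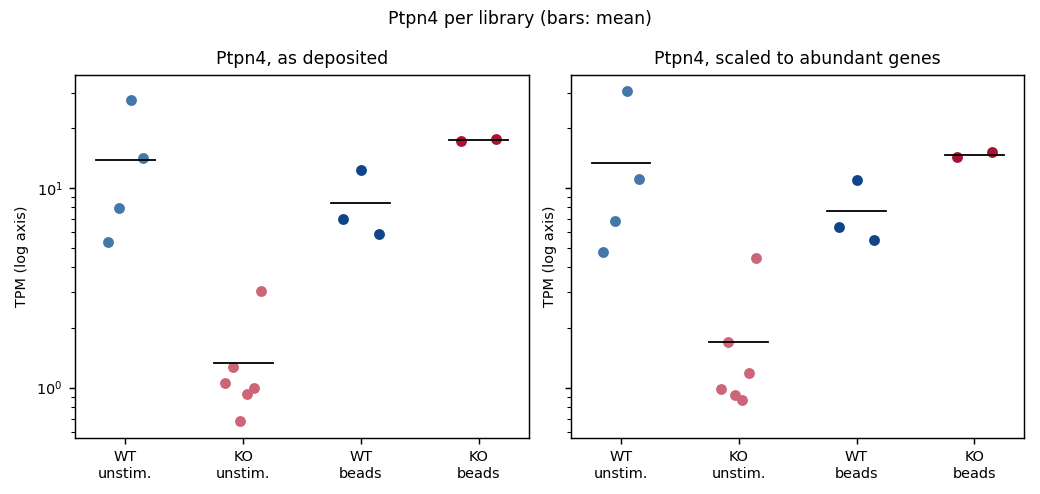
Ptpn4 in each library on a log axis of TPM, as deposited (left) and after scaling to the 815 abundant genes (right), with a bar at each group's mean. On both panels the 6 unstimulated KO libraries lie below every other library, and the 2 KO libraries with beads lie above the 3 WT libraries with beads.

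Scaling each library to its abundant genes left these orders in place. The scale factors were 0.901 to 1.26 in unstimulated WT, 0.686 to 1.07 in unstimulated KO, 1.07 to 1.12 in WT with beads and 1.16 to 1.21 in KO with beads. After scaling, the unstimulated KO mean was 0.126 times the WT mean, and the KO mean with beads was 1.93 times the WT mean. As a share of the summed TPM of the 9 phosphatases, Ptpn4 made up 1.36% to 9.19% in unstimulated WT and 0.281% to 1.56% in unstimulated KO, ranges that overlapped because KO library 5 exceeded the unnumbered WT library. With beads the share was 1.01% to 2.34% in WT and 2.34% to 2.82% in KO. These ranges also overlapped, since WT bead library 2 (2.341%) slightly exceeded KO bead library 4 (2.339%).

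Among 9776 protein-coding genes with named loci and a mean of at least 5 TPM in some group, those most like Ptpn4 over the 15 libraries were Calhm2 (Pearson r 0.889), Ccdc40 (r 0.885), Nt5m (r 0.882), Pdha1 (r 0.864) and Cxcr6 (r 0.849). The libraries share their groups, so these values describe the same separation of groups. Pdha1, a subunit of pyruvate dehydrogenase, had means of 36.7, 14.5, 39.8 and 50.9 TPM in unstimulated WT, unstimulated KO, WT with beads and KO with beads. Cxcr6, a chemokine receptor, differed from Ptpn4 with beads, where its means were 20.6 TPM in WT and 10.5 TPM in KO.

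Of the 9 phosphatases in the unstimulated contrast, 8 had a log2 difference below 0 and 1, Ptprj, above it, with a median of -0.59 against -0.11 over all genes. By the same fit 0.0734% of all 29989 genes fitted were past the threshold of adjusted p 0.05, and the 9 genes were not tested in this contrast. In 2 of 9, Ptpn4 and Ptpn7, every KO library was below every WT library, an order seen in 1.27% of genes, and in 0 of 9 above, the order of 0.293% of genes. These counts belong to the contrast that selected the leading gene and nothing is read from them. Under scaling to abundant genes the median of all genes moved from -0.11 to 0.12 and that of the 9 from -0.59 to -0.22, with Ptpn2 at -0.049, Ptpn6 at -0.32 and Ptpn18 at -0.22. The summed TPM of the 9 genes was 300 to 488 in WT and 191 to 375 in KO libraries.

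With beads the same contrast was tested for all 9 genes and 0 passed with limma (0.00333% of all genes did). Of the 9, 0 were at an unadjusted limma p under 0.05, against 868 of all 29989 genes. The median log2 difference was 0.054 against 0.13 over all genes, and -0.19 and -0.039 under median-ratio scaling and scaling to abundant genes. Both KO libraries lay above the 3 WT libraries for Ptpn4 and Ptpn6, 2 of 9 genes against 17.4% of all genes, and below them for Ptpn2, 1 of 9 against 8.02%. For the other 6 the genotypes overlapped.

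From medium to beads, 2 of the 8 genes tested passed in WT cells, both higher, Ptpn6 and Ptpn2. In the background 11.2% of genes passed either way and 4.6% passed higher. In KO cells 4 of the 8 genes tested passed, all higher, Ptpn6, Ptpn7, Ptpn18 and Ptpn2, against 8.11% of genes either way and 5.95% higher. The background share depends on the filter: with one of 5 TPM, 1618 of 17401 genes passed higher in WT and 2087 in KO, which are larger shares. Ptpn4 was not tested in either response. The median of the 9 was 0.66 in WT and 1.37 in KO cells, against -0.44 and -0.23 over all genes. It was 1.20 in WT under median-ratio scaling and 0.90 in KO under scaling to abundant genes. Over all genes the WT response split into 1378 higher and 1988 lower, and into 2543 and 617 under median-ratio scaling, whereas the KO response split into 1785 higher and 646 lower, and into 1275 and 1836 under scaling to abundant genes. The difference between the 2 responses was tested for the 8 genes other than Ptpn4. It passed for 0 of the 8 with limma (0.00333% of all genes), while 2 of the 8, Ptpn6 and Ptpn7, had an unadjusted p under 0.05, as did 1247 of all 29989 genes.

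**Figure D2:**
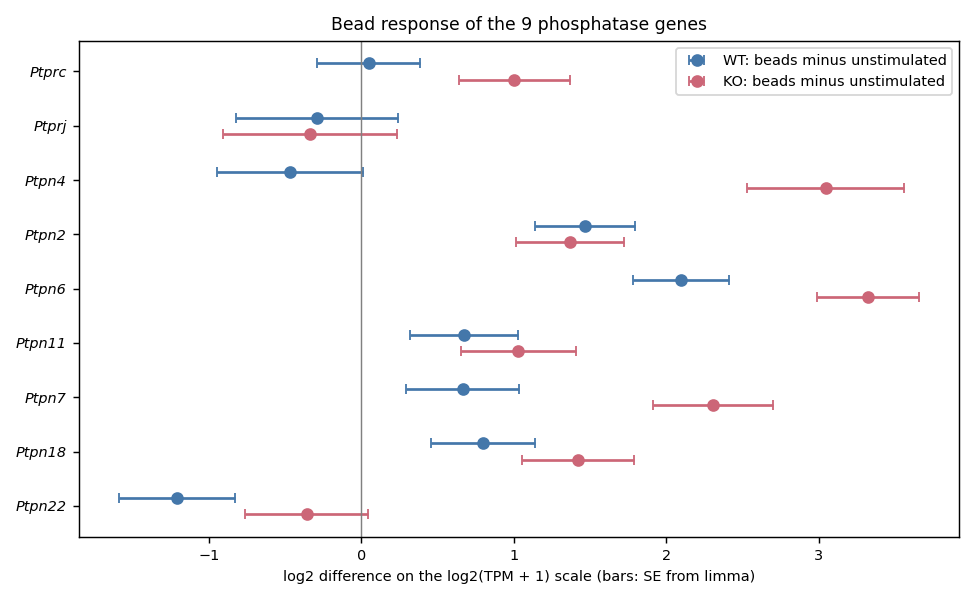
Bead response of the 9 genes as the difference in log2(TPM + 1) between beads and medium, with bars of 1 SE from limma, for WT (blue) and KO (red) cells. Ptpn6 has the largest response in both genotypes, 2.10 and 3.32, Ptpn22 is the lowest in WT at -1.21, and Ptpn4, shown as a description, is the gene at -0.47 in WT and 3.04 in KO.

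The receptor phosphatases did not pass in any test as fitted. Ptprc (ENSMUSG00000026395, chr1:138062861-138175708), which encodes CD45, was the most abundant of the 9 on average in every group. It was at 139, 145, 101 and 235 TPM in unstimulated WT, 69.7 to 173 TPM with a median of 107 in unstimulated KO, 156, 124 and 185 TPM in WT with beads and 268 and 174 TPM in KO with beads. The WT means were 155 TPM in both conditions, and the log2 response was 0.05 (SE 0.34) in WT and 1.00 (SE 0.36) in KO, with limma adjusted p of 0.949 and 0.113. Under median-ratio scaling the KO response of Ptprc was 1.16 and passed (limma adjusted p 0.0377). Both KO bead libraries were above all 6 unstimulated KO libraries, by a small margin for library 5. The table gives 1 value a gene and does not separate CD45 isoforms. Ptprj (ENSMUSG00000025314, chr2:90429754-90580647) encodes CD148, a receptor phosphatase of hematopoietic cells that acts on Src-family kinases. It was low, at 1.24 to 6.13 TPM in the unstimulated libraries and 0.774 to 5.18 TPM with beads, and the 2 KO bead libraries held both of those last values.

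Ptpn6 (ENSMUSG00000004266, chr6:124720707-124738714) encodes SHP-1, which is recruited through its SH2 domains to phosphorylated inhibitory receptors. It was at 27.4, 24.6, 23.9 and 42.2 TPM in unstimulated WT and at 11.1 to 26.6 TPM with a median of 18.0 in unstimulated KO. With beads the WT libraries held 129, 106 and 148 TPM and the KO libraries 188 and 181 TPM. Every bead library was above every unstimulated one, and the KO libraries were the highest of all. Ptpn6 rose by a log2 difference of 2.10 (SE 0.31, limma adjusted p 0.00105) in WT and 3.32 (SE 0.33, limma adjusted p 6.76e-05) in KO, with means 4.31 and 10.1 times those in medium. The responses differed by 1.23 (SE 0.46), with an unadjusted limma p of 0.0169 and an adjusted p of 0.999. The KO to WT difference with beads was 0.54 (SE 0.37) with an exact permutation p of 0.2. An antisense gene, Gm20531, shares 6.96% of the exon bases of Ptpn6 and was listed at 0 to 8.32 TPM, and Smart-Seq2 reads do not tell the strands apart.

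Ptpn11 (ENSMUSG00000043733, chr5:121130533-121191397), which encodes SHP-2, the other SH2-domain phosphatase and a positive regulator of the Ras pathway, was far lower than Ptpn6 in every group. Unstimulated WT libraries held 3.44, 2.56, 4.14 and 5.12 TPM and KO libraries 1.37 to 3.92 TPM with a median of 2.41. With beads the WT libraries held 5.97, 6.76 and 6.93 TPM and the KO libraries 4.51 and 7.90 TPM. All bead libraries were above the unstimulated libraries of their genotype. The log2 responses of 0.67 (SE 0.35) in WT and 1.03 (SE 0.38) in KO did not pass, with limma adjusted p of 0.241 and 0.117. Under median-ratio scaling the WT response was 1.20 and passed (limma adjusted p 0.0331).

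Ptpn2 (ENSMUSG00000024539, chr18:67665511-67724595), which encodes TC-PTP, was at 23.6, 36.9, 15.5 and 24.2 TPM in unstimulated WT and at 12.6 to 30.9 TPM with a median of 17.5 in unstimulated KO. With beads the WT libraries held 72.8, 71.6 and 60.5 TPM and the KO libraries 46.6 and 48.4 TPM. The bead libraries lay above all unstimulated ones, with KO in between. Ptpn2 rose in both genotypes, by 1.47 (SE 0.33, limma adjusted p 0.0103) in WT and by 1.37 (SE 0.35, limma adjusted p 0.0262) in KO. The KO call was lost without KO bead library 4 (limma adjusted p 0.182) or 5 (limma adjusted p 0.226) and under scaling to abundant genes, where the response was 0.90 (limma adjusted p 0.0774). It was also lost with the replicate block (limma adjusted p 0.0755) and with only the groups compared (limma adjusted p 0.0713). Although both KO bead libraries were below the WT ones, the difference of -0.51 (SE 0.39) had a limma adjusted p of 1.00 and an exact permutation p of 0.1, the smallest this design allows. The same order held for the share of the summed TPM.

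Ptpn7 (ENSMUSG00000031506, chr1:135132700-135145317) encodes the hematopoietic phosphatase HePTP, which acts on the MAP kinases ERK and p38. It was at 16.7, 15.9, 17.9 and 20.2 TPM in unstimulated WT and 3.64 to 13.8 TPM with a median of 4.80 in unstimulated KO, with all KO libraries lower. With beads the WT libraries held 28.6, 30.9 and 26.2 TPM and the KO libraries 30.5 and 36.9 TPM, so that the genotypes overlapped. The KO response of 2.31 (SE 0.39) passed with a limma adjusted p of 0.00211, and the mean was 5.09 times that in medium. It no longer passed without KO bead library 5 (limma adjusted p 0.0689). The WT response was 0.66 (SE 0.37, limma adjusted p 0.270), and 1.26 under median-ratio scaling, where it passed (limma adjusted p 0.0150). The difference between the responses was 1.64 (SE 0.54), with an unadjusted limma p of 0.00786 and an adjusted p of 0.999, and it rests on the same unstimulated KO libraries as the low level in medium.

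**Figure D3:**
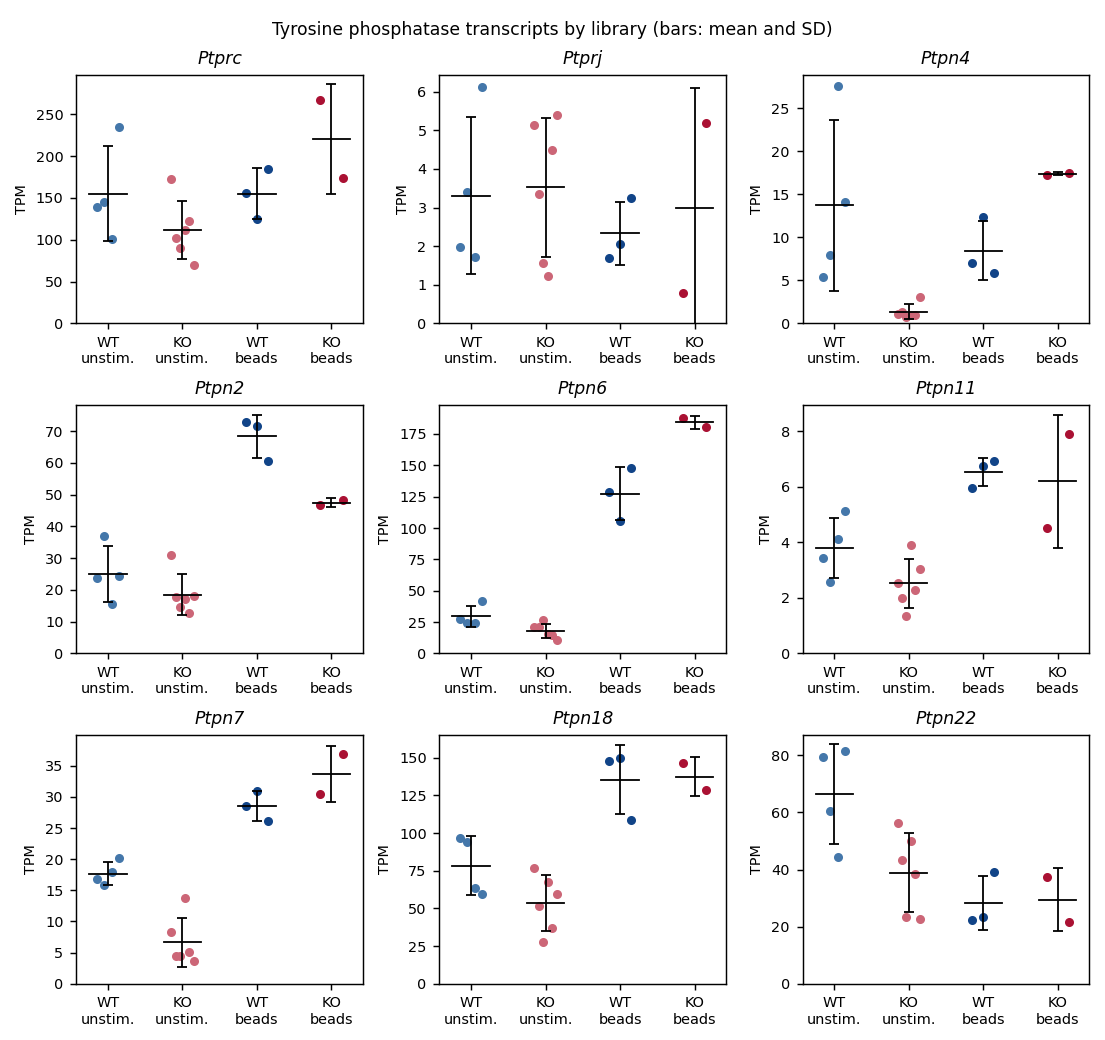
TPM of the 9 genes in each library (points), with the mean and SD (bars), on a linear axis from 0 for each gene; the lower SD bar of Ptprj in KO with beads passes below 0 and is not drawn there. Ptpn6, Ptpn2, Ptpn7 and Ptpn18 sit above all unstimulated libraries after beads, Ptpn22 sits lower in WT after beads, and Ptpn4 is lowest in unstimulated KO.

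Ptpn18 (ENSMUSG00000026126, chr1:34459762-34475733) and Ptpn22 belong to the same PEST-type family and followed Ptprc as the most abundant of the 9 in medium. Ptpn18 was at 96.4, 94.2, 63.7 and 59.4 TPM in unstimulated WT, 27.8 to 76.9 TPM with a median of 55.8 in unstimulated KO, 148, 150 and 109 TPM in WT with beads and 147 and 128 TPM in KO with beads. All bead libraries were above all unstimulated libraries. It rose in KO by 1.42 (SE 0.37, limma adjusted p 0.0259), a call lost without KO bead library 4 (limma adjusted p 0.230) or 5 (limma adjusted p 0.173) and under scaling to abundant genes (0.94, limma adjusted p 0.0797). The Ptpn18 call was lost, too, with the replicate block (limma adjusted p 0.0980) and with only the groups compared (limma adjusted p 0.0873). The WT response was 0.80 (SE 0.34, limma adjusted p 0.150), and 1.42 under median-ratio scaling, where it passed (limma adjusted p 0.0105). The gene Gm28417, on the opposite strand, shares 7.58% of the exon bases of Ptpn18 and was at 5.03 to 22.7 TPM.

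Ptpn22 (ENSMUSG00000027843, chr3:103859795-103912247), which encodes a phosphatase that acts on Lck and Zap70 and is a known autoimmune susceptibility gene, was the one member whose WT libraries were all lower with beads. It was at 79.4, 60.6, 44.4 and 81.4 TPM in unstimulated WT and at 22.2, 23.5 and 39.2 TPM with beads. In KO cells it was at 22.7 to 56.2 TPM with a median of 40.8 in medium and at 37.2 and 21.7 TPM with beads, so that these groups overlapped. The WT response of -1.21 (SE 0.38) missed the threshold with a limma adjusted p of 0.0516. Among the alternatives, it also missed the threshold under median-ratio scaling, with a pseudocount of 0.1 and without a filter. When single libraries were left out, it missed the threshold for each WT bead library and for every other library not named below. It passed under the remaining alternatives. The limma adjusted p was 0.0194 under scaling to abundant genes, 0.0498 with a pseudocount of 5, 0.0332 with a filter of 5 TPM, 0.0477 with only the groups compared, 0.0333 with the replicate block, 0.0467 without WT unstimulated library 2, and 0.0466, 0.0425 and 0.0446 without the unstimulated KO libraries unnumbered, 2 and 5. The KO response was -0.36 (SE 0.40, limma adjusted p 0.665), and the difference between the responses, 0.85 (SE 0.55), had a limma adjusted p of 0.999. With beads the genotypes had means of 28.3 ± 9.47 TPM (SD, n = 3) in WT and 29.5 ± 11.0 TPM (n = 2) in KO, a difference within the spread.

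Within the phosphatase transcripts, Ptpn22 took a smaller share with beads and Ptpn6 a larger one. Ptpn22 made up 14.8% to 20.2% of the summed TPM of the 9 genes in unstimulated WT and 11.5% to 17.7% in unstimulated KO, and 3.90% to 6.72% and 3.50% to 5.04% with beads. Ptpn6 went from 6.28% to 8.65% in unstimulated WT and 5.40% to 13.9% in unstimulated KO to 20.1% to 25.3% in WT and 25.4% to 29.1% in KO with beads. For both genes the bead libraries stood apart from the unstimulated libraries of either genotype. Ptpn2 held 4.97% to 9.45% and 5.30% to 9.19% in medium, 10.4% to 13.6% in WT with beads, and 6.30% to 7.79% in KO with beads. The summed TPM itself was 527 to 584 in WT and 621 to 739 in KO with beads. These shares are descriptions and were not tested.

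**Figure D4:**
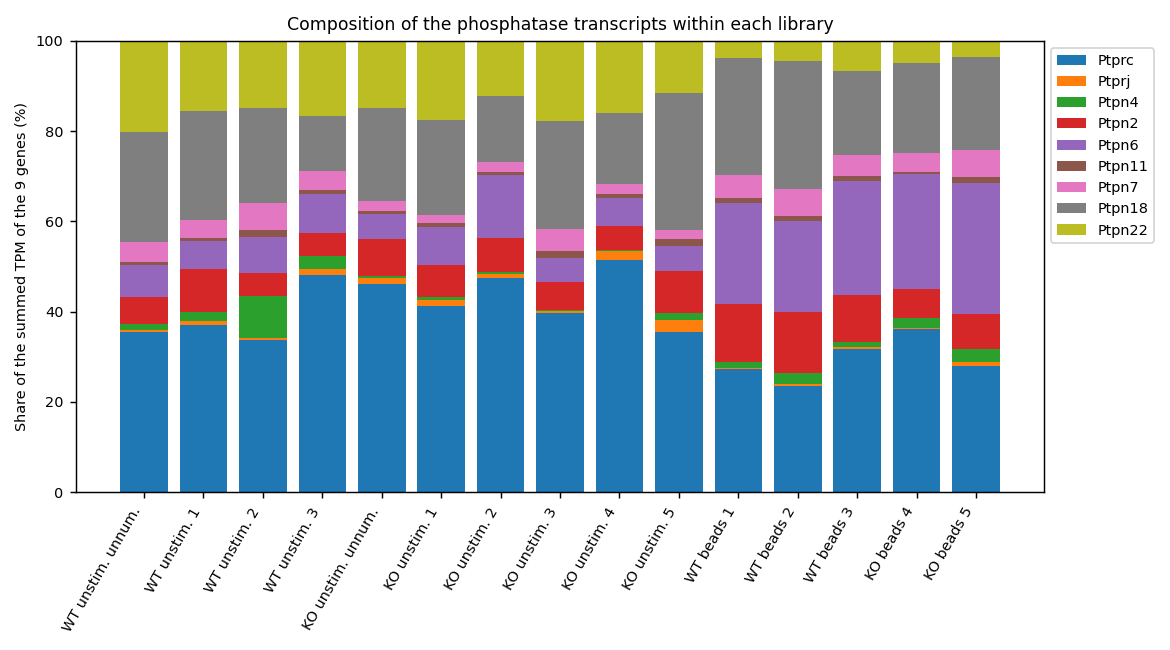
Share of each gene in the summed TPM of the 9 phosphatases, in percent, 1 bar for each of the 15 libraries. The Ptpn22 share is 11.5% or more in all 10 unstimulated libraries and 6.72% or less in all 5 bead libraries, and the Ptpn6 share is 13.9% or less and 20.1% or more in the same sets.

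Ordered by mean TPM, unstimulated WT cells held Ptprc first, followed by Ptpn18, Ptpn22, Ptpn6, Ptpn2, Ptpn7, Ptpn4, Ptpn11 and Ptprj. The ranges of neighbours did not overlap between Ptprc and Ptpn18, Ptpn22 and Ptpn6, and Ptpn4 and Ptpn11, while all other neighbours overlapped. In unstimulated KO cells Ptpn4 was last, and no neighbours were apart by their ranges. In WT cells with beads Ptpn6 stood at rank 3 behind Ptprc and Ptpn18, which overlapped it, and in KO cells with beads it stood at rank 2, overlapping Ptprc and above Ptpn18. Ptpn22 ranked 6 in both groups with beads, next to Ptpn7, which it overlapped.

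Among 10 other non-receptor tyrosine phosphatases, 1 passed in the WT bead response, where 11.2% of all genes did. It was Ptpn14, which fell by 1.45 on the log2 scale (limma adjusted p 0.0135) from 3.07 to 0.518 TPM. None passed in the KO response or between genotypes with beads by limma, against 8.11% and 0.00333% of all genes. In these, 1 and 3 of the 10 had an unadjusted limma p under 0.05, as did 6411 and 868 of all 29989 genes. The list's median response was -0.47 in WT and -0.08 in KO, against -0.44 and -0.23 over all genes. Ptpn1, which encodes PTP1B, the close relative of TC-PTP, had means of 92.1 ± 21.7 TPM (SD, n = 3) in WT and 42.4 ± 14.8 TPM (n = 2) in KO with beads, a log2 difference of -1.12 (SE 0.47, limma adjusted p 1.00). Ptpn5 was at 4.39 ± 0.592 TPM (n = 3) in WT and 12.3 ± 0.404 TPM (n = 2) in KO with beads, a difference of 1.31 (SE 0.45, limma adjusted p 1.00).

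Of 18 other receptor tyrosine phosphatases tested, Ptprs, a receptor for proteoglycans, rose with beads in both genotypes, by 1.61 (limma adjusted p 0.0225) in WT and 2.58 (limma adjusted p 0.0025) in KO. Ptpro fell in both, by 2.64 (limma adjusted p 0.0123) and 3.11 (limma adjusted p 0.00844), and Ptprz1 fell in WT by 1.89 (limma adjusted p 0.0328). No other gene of this list passed in the responses, where 11.2% of all genes passed in WT and 8.11% in KO. None passed between genotypes with beads (0.00333% of all genes), where 1 of 18 had an unadjusted limma p under 0.05, as did 868 of all 29989 genes. The median response of the list was -0.88 in WT and -0.44 in KO. Ptprd, the most abundant of the list, had means of 8.65 TPM in WT and 14.3 TPM in KO with beads.

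Of 26 partners and docking receptors of these phosphatases tested, 4 rose and 5 fell in WT, where 1378 and 1988 of all 29989 genes did. In KO 7 rose and 0 fell, where 1785 and 646 of all genes did, and members that did not pass lay on both sides of 0, as Lair1 at -1.43 and Cd72 at 0.71. In the list 0 passed between genotypes with beads by limma, where 0 had an unadjusted limma p under 0.05, against 868 of all 29989 genes. The median response was -0.57 in WT and 0.34 in KO. Ptprcap, which encodes the protein associated with CD45, rose from 148 to 390 TPM in WT (1.43, limma adjusted p 0.0105) and from 60.2 to 450 TPM in KO (2.97, limma adjusted p 0.000169), although Ptprc itself did not pass in either genotype. Btla, an inhibitory receptor that recruits SHP-1 and SHP-2, rose by 2.00 (limma adjusted p 0.00531) and 2.46 (limma adjusted p 0.00241). Cd5, an inhibitory coreceptor, rose by 2.01 in KO (limma adjusted p 0.00211) and had a response of 0.75 in WT (limma adjusted p 0.149). Pdcd1, which encodes PD-1, a docking receptor of SHP-2, rose by 2.63 in KO (limma adjusted p 0.00773), from 6.98 to 40.8 TPM. In WT it was at 63.7 TPM in medium and 35.8 TPM with beads, a response of -0.71 (limma adjusted p 0.408). Pecam1 and Cd84 fell in WT, by 1.70 (limma adjusted p 0.00577) and 1.25 (limma adjusted p 0.0132).

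Of 30 kinases and substrates on which the phosphatases act, 3 rose and 1 fell in WT, and 5 rose and 0 fell in KO, against 4.6% of all genes called higher in WT and 5.95% in KO. Of all 29989 genes, 1988 were called lower in WT and 646 in KO. The list's median responses were -0.01 and 0.47. Jak3, the kinase of the common gamma chain, rose by 1.21 in WT (limma adjusted p 0.0376) and 2.22 in KO (limma adjusted p 0.00209), and Stat5a, which acts below the IL-2 receptor, by 1.71 (limma adjusted p 0.00901) and 2.24 (limma adjusted p 0.00291). Zap70, a kinase of the T cell receptor pathway, rose in KO by 2.30 (limma adjusted p 0.00338), and Skap1, an adaptor, fell in WT by 1.46 (limma adjusted p 0.0146). Lck and Cd3g, the most abundant of the list, did not pass between genotypes with beads, with differences of 0.29 and 0.37 (limma adjusted p 1.00 for both). None of the 30 passed in that contrast by limma, and 2 had an unadjusted limma p under 0.05, as did 868 of all 29989 genes. In none of the 4 lists did a gene pass in the difference between the responses by limma. There, 1, 0, 5 and 3 genes of the lists, in the order given here, had an unadjusted limma p under 0.05, as did 1247 of all 29989 genes.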

How the data were processed

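Sorted Treg libraries were made with Smart-Seq2. The authors deposited 1 table of TPM per library. The submitters' processing notes name STAR, Salmon, DESeq2 and the build mm10, with no version or role. Ensembl IDs were named with GENCODE vM21. Members and lists were chosen with earlier results of these data known. TPM were tested as log2(TPM + 1) with limma 3.58.1 (R 4.3.3), with 4 group means and a moderated variance with a mean trend shared by all groups, on the 29989 genes that reached 1 TPM in 2 or more libraries. All 9 members passed this filter. P-values were adjusted by Benjamini-Hochberg over all genes tested, with a threshold of 0.05. Single values were also compared by two-sided exact permutation tests. The fit was run on simulated data for the unstimulated contrast only, which does not cover the contrast with beads, the bead responses or their difference. From each other list, up to 4 called genes with the smallest p were named per comparison, or the 2 most abundant where none was called; some of the genes this names are not reported here. Alternatives were other pseudocounts, filters, scalings, sample sets, a block and leaving out each library. Pattern likeness was Pearson's r on the log2 scale. Upstream windows came from RefSeq (GRCm38.p6). Depth is unknown, so no count model or interval on counts was used.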

Additional observations from a re-analysis of the deposited data

Results flagged for a closer look

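Of 18 groups of 4 or 6 libraries (9 genes in the 2 unstimulated groups), 2 held a library far from the others by Dixon's criterion, and chance flags about 1 in 20 groups. Ptpn4 in unstimulated KO library 5 was at 3.06 TPM, above the other 5 KO libraries and below all WT libraries. Without it the log2 difference of unstimulated KO from WT was -2.66. Ptpn2 in the unnumbered unstimulated KO library was at 30.9 TPM, above the other 5.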

How the results depend on the processing

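With few libraries, 2 in KO with beads, differences between genotypes in bead-treated cells are loosely bounded, and TPM give no depth. Of the tested results, Ptpn6 in both genotypes and Ptpn2 in WT passed under every alternative run. In the WT response 5 of the 8 genes tested passed under median-ratio scaling, instead of 2 as fitted. In the KO response Ptpn2 and Ptpn18 were lost under scaling to abundant genes, with only the groups compared, with the replicate block and without KO bead library 4. Without KO bead library 5, Ptpn7 was lost along with Ptpn2 and Ptpn18. Ptprc was gained in the KO response under median-ratio scaling. The cause was not tested. Over all genes the KO response had 2431 calls, 1198 with only the groups compared, 1136 with the replicate block, 614 without KO bead library 4 and 380 without library 5, and the WT response had 3366 calls, 3086 with the block and at least 1650 without single libraries. The unstimulated contrast had 22 calls and 2 to 67 under the alternatives. The contrast with beads had 1 call and 0 to 15, and the difference between responses 1 and 0 to 6. Same-numbered libraries did not deviate together, with correlations of -0.070 to 0.14 of which 1 of 12, that of the unnumbered libraries, was over 0.1, and not every library correlated best with its own number, so the block serves only as an alternative. No value that turned sign was past the threshold. For KO minus WT with beads, Ptpn7, Ptpn18, Ptpn22 and Ptprj turned to -0.047, -0.25, -0.22 and -0.19 under median-ratio scaling, and the last 3 to -0.077, -0.052 and -0.039 under scaling to abundant genes. Ptprj was at -0.13 with a pseudocount of 0.1 and -0.80 with the replicate block. Without single libraries Ptpn11 ranged from -0.45 to 0.24, Ptpn18 from -0.12 to 0.13, Ptpn22 from -0.32 to 0.43 and Ptprj from -0.88 to 0.92. In the WT response Ptpn4, which was not tested, was at 0.095 and Ptprj at 0.17 under median-ratio scaling and Ptprc ranged from -0.13 to 0.27 without single libraries. In the KO response Ptpn22 ranged from -0.73 to 0.016 and Ptprj from -1.24 to 0.56. For the difference between responses, Ptpn2 was at 0.015 with the replicate block and from -0.30 to 0.10 without single libraries, Ptpn11 at -0.039 and -0.011 under median-ratio and abundant-gene scaling, and Ptprj at 0.031 with a pseudocount of 5 and from -0.95 to 0.85 without single libraries.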
